A study of Mus musculus with 12 samples.

Results

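The respiratory chain of mitochondria was followed in the mid-colon of mice during colitis caused by dextran sulfate sodium (DSS), a polymer given in drinking water that damages the gut lining. Its members were the rows of the deposited table whose symbols follow the naming of the nuclear subunits (Nduf with a subunit letter and number, Sdha to Sdhd, Uqcr, Cox with a nuclear subunit number, and Atp5) together with the protein genes of mitochondrial DNA. This gave 102 of 25904 listed genes, of which 89 are nuclear and 13 mitochondrial. By complex, the nuclear members were 40 for complex I, 4 for complex II, 9 for complex III, 18 for complex IV (with Ndufa4 and Ndufa4l2, whose products belong there) and 18 for complex V. The mitochondrial members were 7 for complex I, 1 for complex III, 3 for complex IV and 2 for complex V. Bulk RNA sequencing was done on 12 libraries of whole mid-colon, 3 for each of days 6, 4 and 2 of DSS and 3 for day 0. The mice were 7 weeks old and kept free of specific pathogens, DSS was given at 3% over 6 days, and a group on plain water is named in the design. No strain, sex or genetic change is named. Since no library of days 2 to 6 is labelled as water, the effect of DSS and that of time or age cannot be told apart. The labels do not say whether replicates came from different mice, so p-values describe the spread among these libraries alone, and part of it may be technical.

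The respiratory chain passes electrons from NADH (complex I) and succinate (complex II) through complex III to oxygen at complex IV, and complex V uses the resulting proton gradient to make ATP. Complex II is built from nuclear genes alone, and the other complexes join nuclear subunits to the products of mitochondrial DNA, which is transcribed inside the organelle as long transcripts that are then cut apart. Colonocytes, the absorptive cells of the colon, oxidise the bacterial fatty acid butyrate in their mitochondria, and the muscle wall of the colon is also rich in mitochondria. In bulk tissue, fewer cells of a type and less RNA per cell cannot be told apart.

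Values are CPM, the reads of a gene scaled to its library's total, and libraries held 31058911 to 41011005 reads. Of the 102 members, 88 reached the minimum of 1 CPM in at least 3 libraries and were tested, 75 nuclear and 13 mitochondrial. Fold changes are log2 differences of CPM + 1, later day over earlier day, with their standard error, and are tested with limma across all 15246 genes that passed the same minimum, at an adjusted p of 0.05. Of the 14 members not tested, 7 are gene copies or pseudogenes by name. The other 7 are Cox6a2 and Cox8b (forms found in heart and skeletal muscle), Cox8c, Cox7b2, and Sdhd, Uqcr11 and Cox7a2, which belong to the common forms of complexes II, III and IV. Over all 12 libraries Sdhd had 33 reads, Uqcr11 11 reads and Cox7a2 108 reads, so these ubiquitous subunits were listed near 0 while their partners were not. No stretch of 100 bases shared with another gene was found in those 3, and the cause was not tested.

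Sequence bears on how the mitochondrial genes can be counted, because part of mitochondrial DNA also lies in the nuclear genome. In the GENCODE annotation of mm10, pseudogenes on the minus strand of chromosome 1 carry nearly the same bases as several of the 13 genes. ND3, the subunit of complex I that fell most clearly, shows it. Its gene is chrM:9459-9806 and its copy Gm28438 is chr1:24612775-24613119, and over 345 aligned bases they differ at 1, written T3C with positions counted from the first base of ND3. The first 120 bases of both are given 5′ to 3′, with the differing base in capitals:

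ND3: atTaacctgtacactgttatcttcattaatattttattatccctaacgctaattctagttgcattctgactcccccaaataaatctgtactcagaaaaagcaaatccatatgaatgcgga

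Gm28438: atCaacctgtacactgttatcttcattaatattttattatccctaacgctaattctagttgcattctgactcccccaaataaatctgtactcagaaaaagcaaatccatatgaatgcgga

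The copies of COX2, COX3, ATP6, ND4 and ND4L were identical over their whole aligned length of 681, 783, 678, 876 and 294 bases. Of all stretches of 100 bases, 97.6% in ND3, 98.5% in ND4L, 99.5% in COX2, 99.5% in ATP6 and 99.9% in COX3 also occur in another gene. The share was 60.8% for ND4, 30.8% for COX1 and 3.19% for ND2, and it was 0% for ND1, ND5, ND6 and CYTB. ATP8 also had 0%, but it overlaps ATP6 by 21.1% of its length, and no copy of it is annotated on chromosome 1.

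**Figure D1:**
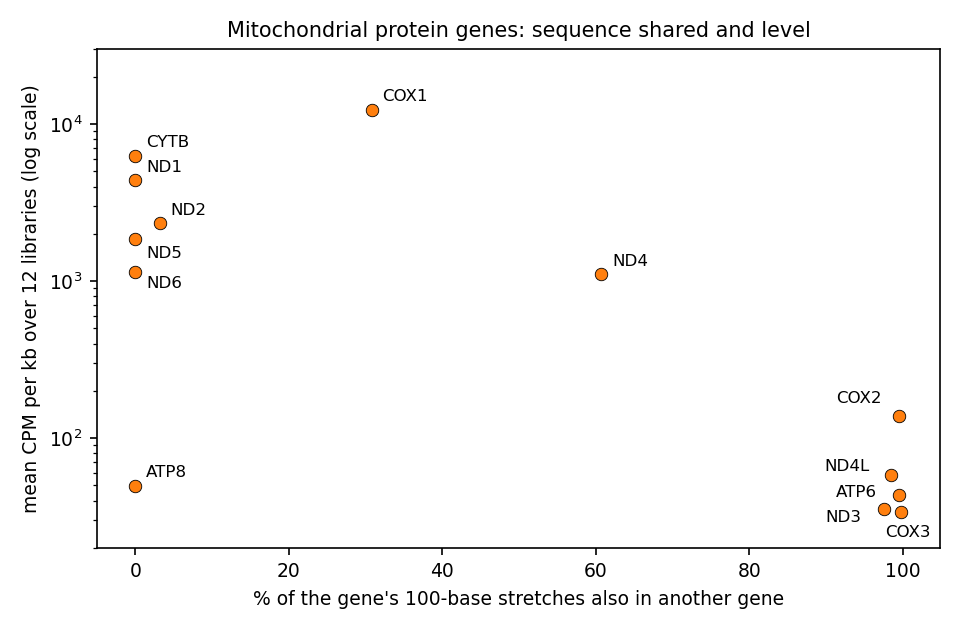
Mean level of each of the 13 mitochondrial protein genes over the 12 libraries (CPM per kilobase of exon, log scale) against the share of its 100-base stretches that also occur in another annotated gene. COX1, CYTB, ND1, ND2, ND4, ND5 and ND6 stand at 1106 to 12364 CPM per kilobase, and ND3, ND4L, COX2, COX3, ATP6 and ATP8 at 34.0 to 138 CPM per kilobase.

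Per kilobase of exon the 13 genes fell into 2 ranges. COX1, CYTB, ND1, ND2, ND5, ND6 and ND4 had means of 1106 to 12364 CPM per kilobase, and COX1, the catalytic core of complex IV, was the highest. ND3, ND4L, COX2, COX3, ATP6 and ATP8 had 34.0 to 138 CPM per kilobase. The tested nuclear members had a median of 63.5 CPM per kilobase, from 2.45 for Ndufa4l2 to 601 for Cox6a1. The sources used here do not say how reads with more than 1 place were counted, so levels and changes of the 5 genes with near-complete copies are uncertain. ATP8 is as low and has no annotated copy, but only annotated genes were searched. ATP8 lies between COX2 and ATP6 in mitochondrial DNA, and the stretch between their copies on chromosome 1 was not searched. The 7 genes of the upper range are set apart below by their level. They are not all free of copies, since ND4 (60.8%), COX1 (30.8%) and ND2 (3.19%) also share stretches with another gene.

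The summed levels of each genome were followed over the days. The 13 mitochondrial genes took 4.09% ± 0.901 of the library total at day 0, 5.09% ± 0.297 at day 2, 3.25% ± 0.0368 at day 4 and 3.02% ± 0.280 at day 6 (SD, n = 3 each). The nuclear members took 1.49% ± 0.321 at day 0, 1.18% ± 0.109 at day 2, 1.04% ± 0.0631 at day 4 and 1.03% ± 0.333 at day 6 (SD, n = 3 each). In every day 2 library the mitochondrial sum was above that of every other library, at 4.90% to 5.44% against at most 4.71% at day 0. The ratio of the mitochondrial to the nuclear sum lay between 1.66 and 3.74 at day 0, between 3.74 and 4.80 at day 2, between 2.97 and 3.37 at day 4 and between 2.44 and 4.46 at day 6. The day 2 range lay above those of day 0 and day 4, by little over day 0, and overlapped that of day 6.

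**Figure D2:**
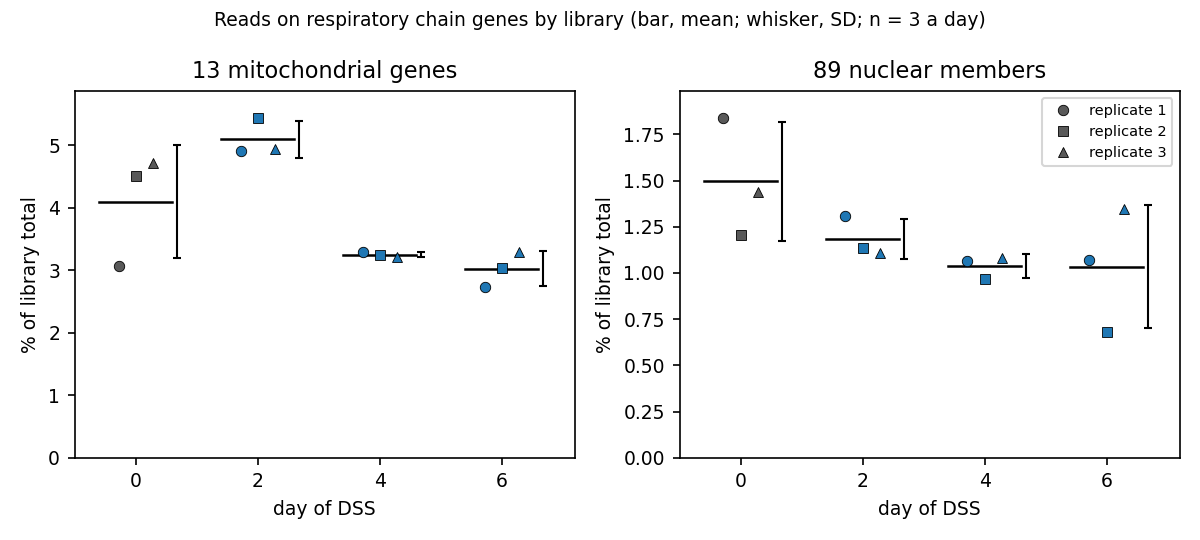
Share of each library's total reads on the 13 mitochondrial protein genes (left) and the 89 nuclear members (right) by day of DSS, with the 3 replicates as points, their mean as a bar and the SD as a whisker. The mitochondrial share is highest in the day 2 libraries (4.90% to 5.44%), and replicate 1 of day 0 (1.84%) and replicate 2 of day 6 (0.682%) mark the extremes of the nuclear share.

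A pair of libraries shaped the nuclear values. Day 0 replicate 1 held the highest level of 65 of the 75 tested nuclear members, and day 6 replicate 2 held the lowest level of 65 of them. Against the mean of the other day 0 libraries, nuclear members in day 0 replicate 1 had a median ratio of 1.45, from 0.792 for Sdha to 2.57 for Cox7a1, while all 13 mitochondrial members were below 1 there with a median of 0.614. In day 6 replicate 2 the median ratio to the other day 6 libraries was 0.612 for nuclear and 1.18 for mitochondrial members. Day 0 replicate 1 also had the highest share of the ribosomal precursor Rn45s, at 5.57% of reads against 1.67% and 1.63% in the other day 0 libraries. The lowest share of all libraries was 0.339%, in day 4 replicate 2. Day 6 replicate 2 had the lowest sum of the 15 colon epithelium markers (7388 CPM, against 12530 and 19469 CPM in the other day 6 libraries) and the highest sum of the 6 fibroblast markers (11297 CPM, against 7515 and 4955 CPM). The part of RNA quality and of cell makeup in the results was not tested, and the main counts are given below with and without this pair of libraries.

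At day 2 no single member passed the test, and with all libraries the nuclear members lay mostly below 0 and the mitochondrial members mostly above it. Of 75 nuclear members 72 had a negative fold change, with a median of -0.32, and 11 of 13 mitochondrial members had a positive one, with a median of 0.25. All genes tested had a median of 0.04, and 44.3% of them were negative. The 7 mitochondrial genes of the upper range were all positive, between 0.13 and 0.46, with all libraries. CYTB was at 8756, 9202 and 8623 CPM at day 2, against 5913, 9407 and 9485 CPM at day 0, so day 2 was above day 0 replicate 1 and below the other day 0 libraries. None of the 88 members passed with limma, edgeR or DESeq2, where limma called 0.203% of all genes lower and 0.118% higher, and 2 nuclear members were lower at an unadjusted p under 0.05, as were 6.76% of all genes. edgeR called 0.144% of all genes lower and 0.0853% higher, and DESeq2 2.3% and 1.25%. COX1 had 25930, 29181 and 25635 CPM at day 2, against 15559, 21455 and 22956 CPM at day 0. Every day 2 library was above every day 0 library, and the fold change was 0.45 ± 0.22 (limma, adjusted p = 0.372). The median for mitochondrial members minus that for nuclear members was 0.58 at day 2, and it was 0.21 without both libraries that stand apart. In that fit 62 of the 75 nuclear members were negative, with a median of -0.15, and 5 of the 13 mitochondrial members were negative, with a median of 0.06. Of this pair only day 0 replicate 1 enters the fold changes of day 2 against day 0.

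**Figure D3:**
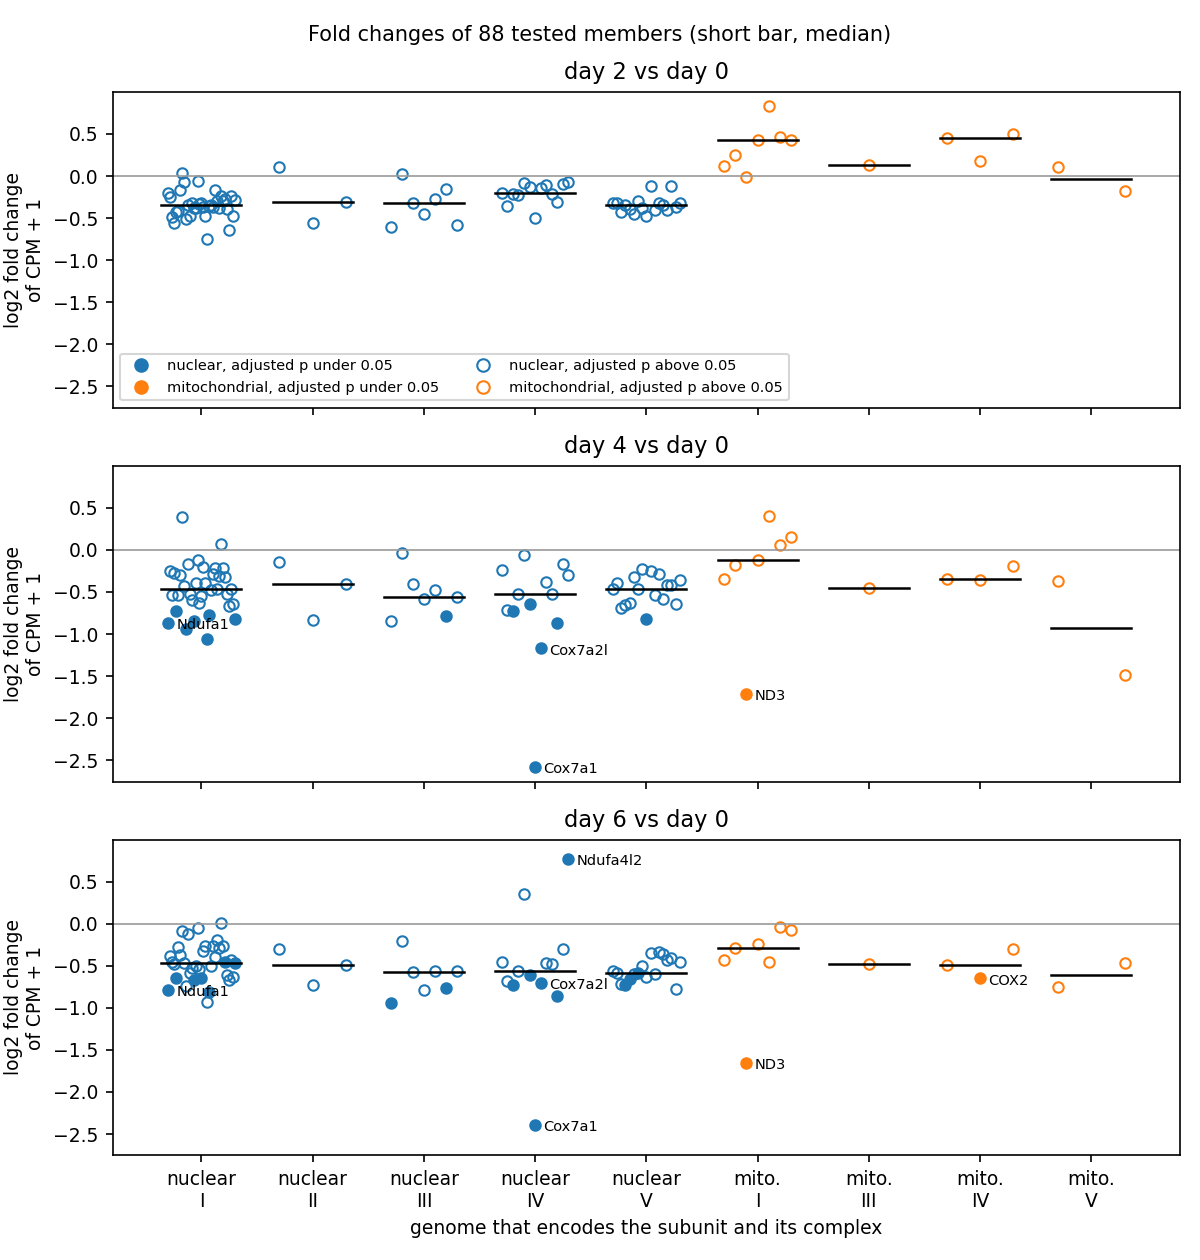
Log2 fold change of CPM + 1 for each of the 88 tested members at day 2, day 4 and day 6 against day 0, grouped by genome and complex, with filled points for an adjusted p under 0.05 and a short bar for the median of each group. At day 2 the nuclear medians lie below 0 (from -0.35 to -0.21) and those of the mitochondrial genes of complexes I, III and IV above it, while at days 4 and 6 all medians are below 0.

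At day 4 the nuclear members of all 5 complexes had a median below 0, and calls were spread over complexes I, III, IV and V. Of 75 nuclear members 14 fell and none rose, and of 13 mitochondrial members ND3 alone fell. That is 18.7% of the nuclear members, where 12% of all genes tested were called lower and 21.2% higher. The nuclear members that fell were 7 of 35 in complex I, 0 of 3 in complex II, 1 of 7 in complex III, 5 of 13 in complex IV and 1 of 17 in complex V. Nuclear medians were alike, at -0.47 for complex I, -0.41 for complex II, -0.56 for complex III, -0.53 for complex IV and -0.47 for complex V, while the median of all genes was 0.13. In all, 73 of the 75 had a negative fold change, where 40.6% of all genes did. In 54 of the 75 nuclear members every day 4 library was below every day 0 library, where 20% of all genes showed this. Without both libraries that stand apart, 23 nuclear members were lower and 1 (Ndufa5) was higher, and 8 mitochondrial members were lower, where 14.4% of all genes were called lower and 27.2% higher. The count of 15 members also moved with single libraries, to 31 without day 0 replicate 2, 7 without day 4 replicate 2, 42 without day 6 replicate 2 and 26 without day 6 replicate 3. The shares of all genes called in these fits are not given, so a move of the members cannot be told from a move over all genes. The count tests and other scalings called more members lower, 33 with edgeR (16.1% of all genes), 48 with DESeq2 (19.5%), 29 after quantile normalization (17.2%) and 23 after median-of-ratios scaling (15.6%).

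By day 6 the number of lower members was similar and the spread was wider. With all libraries, 17 nuclear members and the mitochondrial genes ND3 and COX2 were lower than at day 0, and Ndufa4l2 was higher, where 12.4% of all genes were called lower and 23.5% higher. By complex, the nuclear members that fell were 7 of 35 in complex I, 0 of 3 in complex II, 2 of 7 in complex III, 5 of 13 in complex IV and 3 of 17 in complex V. Negative fold changes were found in 72 of the 75 nuclear members, where 39.9% of all genes had one. Of the 75 nuclear members 13 had every day 6 library below every day 0 library, where 14.4% of all genes did and where 54 of the 75 did at day 4. Without both libraries that stand apart, 2 nuclear members (Cox7a1 and Ndufa1) were lower and 2 (Ndufa4l2 and Ndufs4) were higher, and the nuclear median was -0.09 in place of -0.50. In the same fit 7 mitochondrial members were lower, with a median over the 13 of -0.63 in place of -0.46, and 11.7% of all genes were called lower and 22.3% higher. Leaving out single libraries took the 20 calls to 10 (day 0 replicate 1 or day 6 replicate 1), 37 (day 0 replicate 2), 8 (day 0 replicate 3), 9 (day 6 replicate 2) or 59 (day 6 replicate 3). For these fits too the shares of all genes are not given. With all libraries, 34 members were lower with edgeR (15.7% of all genes), 50 with DESeq2 (19.3%), 42 after quantile normalization (19.2%) and 36 after median-of-ratios scaling (16.5%). The difference of the medians, mitochondrial minus nuclear, thus turned from 0.04 with all libraries to -0.54, and at day 4 it turned from 0.13 to -0.19.

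Complex IV held the member that fell most. Cox7a1, the form of subunit VIIa known from heart, skeletal and smooth muscle and brown fat, had 41.7, 16.4 and 16.0 CPM at day 0, 16.6, 14.5 and 15.7 CPM at day 2, 3.11, 2.51 and 3.10 CPM at day 4, and 2.80, 1.98 and 6.70 CPM at day 6. Days 0 and 2 lay wholly above days 4 and 6. It fell by 2.58 ± 0.38 at day 4 (limma, adjusted p = 0.000432) and by 2.39 ± 0.38 at day 6 (limma, adjusted p = 0.0006) on the log2 scale, and both calls stood under all 24 alternatives, from -3.23 to -1.81 at day 4. Cox7a2l, which takes part in joining complex III to complex IV, averaged 73.1 ± 4.84 CPM at day 4, against 171 ± 53.7 CPM at day 0 (SD, n = 3 each), with a log2 fold change of -1.17 ± 0.22 (limma, adjusted p = 0.00215). At day 6 Cox7a2l was at 112, 78.3 and 118 CPM and was still lower (-0.70 ± 0.22, limma, adjusted p = 0.0286), a call lost when replicate 1 (adjusted p = 0.103) or replicate 3 (adjusted p = 0.0649) of day 0, or replicate 2 of day 6 (adjusted p = 0.0833), was left out. The ubiquitous partner isoform Cox7a2 was listed near 0, so the balance of the VIIa isoforms was not measured.

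Markers of cell types in which Cox7a1 is known can be set beside it, and not all moved with it. The summed level of 10 smooth muscle markers lay between 8709 and 11459 CPM at day 0 and between 12282 and 15165 CPM at day 2. Cox7a1 showed no such rise, at 14.5 to 16.6 CPM at day 2 against 16.0 to 41.7 CPM at day 0. The smooth muscle sum lay between 4253 and 6850 CPM at day 4 and between 3147 and 8060 CPM at day 6. Against day 0, 3 of the 10 fell at day 4 and 5 at day 6, where 12% and 12.4% of all genes were called lower. Against day 2, 8 of the 10 fell at day 4, where 12.9% of all genes were called lower, with Actg2, the gut smooth muscle actin, at -2.28 ± 0.25 (limma, adjusted p = 5.46e-05), and Cox7a1 changed by -2.09 ± 0.38 in that comparison (limma, adjusted p = 0.00155). Between libraries of day 6 the order differed: replicate 3 had the highest Cox7a1 and the lowest smooth muscle sum, and replicate 2 had the lowest Cox7a1 and the highest sum. The 14 skeletal muscle markers summed to 11.6 to 202 CPM over all libraries with the highest in day 0 replicate 2. The 6 heart muscle markers summed to 5.98 to 7.74 CPM at day 0, 6.18 to 38.0 CPM at day 2, 12.7 to 15.8 CPM at day 4 and 7.73 to 52.2 CPM at day 6. Every day 4 library was above every day 0 library for this sum, opposite to Cox7a1, and day 0 replicate 1 had 6.21 CPM. Myl7 made up most of the sum at day 4, with 10.2 ± 1.53 CPM, against 2.74 ± 0.462 CPM at day 0 (SD, n = 3 each). It was the 1 of 5 tested heart muscle markers called higher. Actc1 was lower in every day 4 library than in every day 0 library, and Myh6 was higher. Tnnt2, Tnni3 and Nppa overlapped between these days. Over the day 6 libraries the heart muscle sum followed the order of Cox7a1, at 18.1, 7.73 and 52.2 CPM in replicates 1, 2 and 3. The 7 fat cell markers summed to 81.5 CPM in day 0 replicate 1, the library with the highest Cox7a1, against 31.1 and 36.0 CPM in the other day 0 libraries, and to 89.5 CPM in day 6 replicate 2, the library with the lowest Cox7a1. Plin4 made up 78.1 CPM of the sum in day 6 replicate 2 and 17.9 CPM in day 0 replicate 1. Each of the other fat cell markers was lower in day 6 replicate 2 than in day 0 replicate 1, with Cfd at 4.67 against 44.5 CPM. The 5 brown fat markers summed to 0.484 to 0.735 CPM at day 0, 1.43 to 1.80 CPM at day 2, 6.79 to 12.6 CPM at day 4 and 24.4 to 127 CPM at day 6, a course opposite to that of Cox7a1. Dio2, the deiodinase that activates thyroid hormone, was the 1 tested gene of that list and made up most of the sum at days 4 and 6, with 9.76 ± 3.10 CPM at day 4 and 61.9 ± 56.4 CPM at day 6, against 0.319 ± 0.0525 CPM at day 0 (SD, n = 3 each), while Ucp1, the defining gene of brown fat, was at 0 in 10 of 12 libraries. The part of muscle and fat in the change of Cox7a1 was not tested.

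The other nuclear subunits of complex IV moved less. Cox6a1 and Cox8a, the common forms of subunits VIa and VIII, averaged 328 ± 22.5 and 242 ± 12.95 CPM at day 4, against 549 ± 84.8 and 447 ± 91.5 CPM at day 0 (SD, n = 3 each). Both fell, by 0.73 ± 0.22 and 0.87 ± 0.24 on the log2 scale, as did Cox6c (-0.64 ± 0.17), and Cox6c kept its call under every alternative at day 4. At day 4 Cox6a1 lost its call without day 0 replicate 1, day 0 replicate 3 or any 1 day 4 library (limma, adjusted p of 0.0507 to 0.0816). Cox8a lost its call without day 0 replicate 1 (limma, adjusted p = 0.0642) or day 4 replicate 2 (limma, adjusted p = 0.0569). The muscle forms Cox6a2 and Cox8b stayed at or below 1.21 and 1.10 CPM in every library. Cox4i1, the common form of subunit IV, lies outside the naming rule and was at 399 ± 28.3 CPM at day 4, against 694 ± 182 CPM at day 0 (SD, n = 3 each). Its fold change was -0.77 ± 0.26 (limma, adjusted p = 0.0437), and the adjusted p ranged from 0.00469 to 0.154 over the alternatives.

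Ndufa4l2 was the 1 member that rose. It is a relative of the complex IV subunit Ndufa4 and a known target of hypoxia-inducible factor. It was found at 2.69, 2.15 and 2.00 CPM at day 0, 2.89, 1.79 and 1.77 CPM at day 2, 1.50, 1.51 and 1.98 CPM at day 4, and 4.58, 5.93 and 3.41 CPM at day 6. All 3 day 6 libraries were above all others, and the fold change was 0.77 ± 0.21 against day 0 (limma, adjusted p = 0.0144) and 1.06 ± 0.21 against day 4 (limma, adjusted p = 0.0209). Without day 0 replicate 3 the first p was 0.0543, and the second missed the threshold, between 0.0576 and 0.103, when any 1 day 4 library or day 6 replicate 1 or 2 was left out. Of all genes tested 1.9% were higher at day 6 than at day 4, and no other member was. Ndufa4 was at 71.7 to 94.3 CPM at day 6, against 81.0 to 148 CPM at day 0 (-0.30 ± 0.20, limma, adjusted p = 0.266). The 5 endothelial markers summed to 209 to 663 CPM at day 6, against 125 to 156 CPM at day 0, and to 180 to 278 CPM at day 4. At day 4 every library was above every day 0 library for this sum, and below every day 0 library for Ndufa4l2. The highest library was day 6 replicate 2 for both Ndufa4l2 and the endothelial sum. That library was also the highest for the fibroblast sum (11297 CPM), the monocyte and macrophage sum (2010 CPM) and the fat cell and brown fat sums. The part of endothelial or other cells in the rise was not tested.

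**Figure D4:**
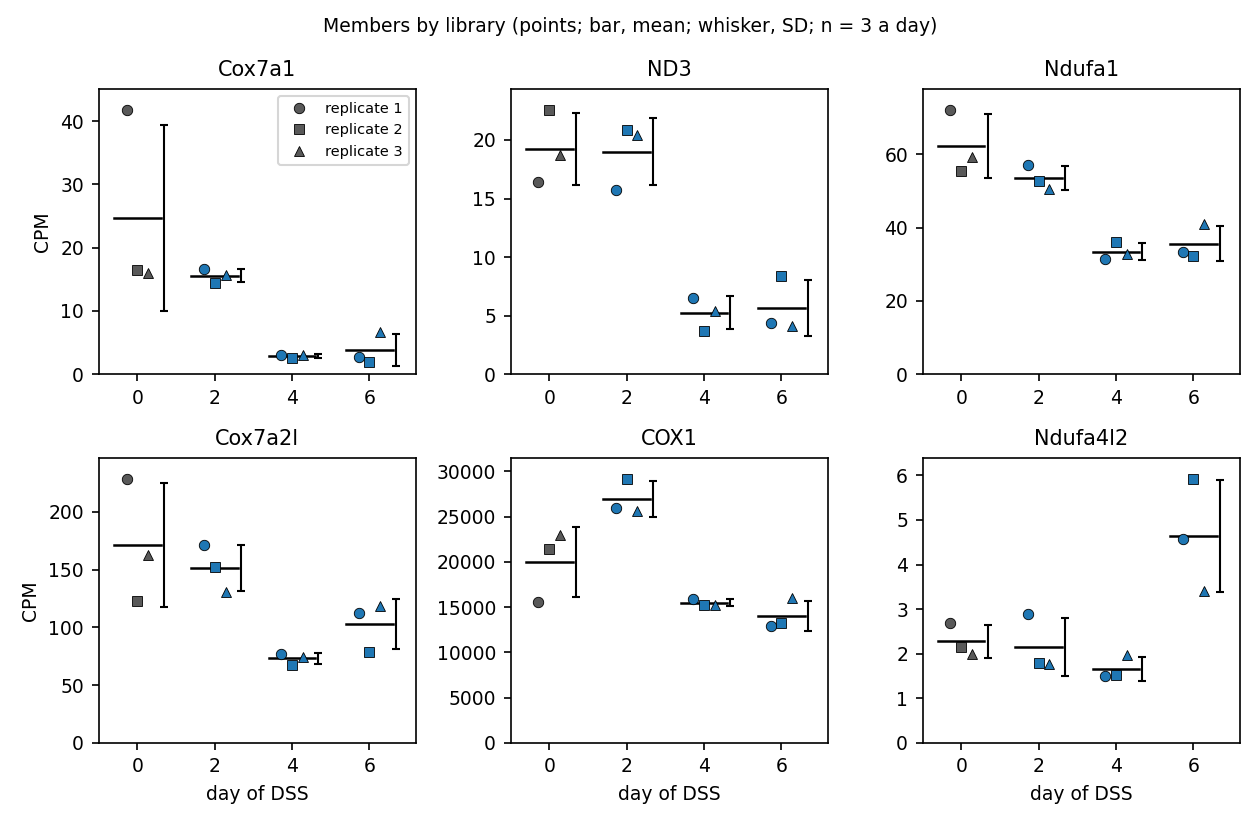
CPM of Cox7a1, ND3, Ndufa1, Cox7a2l, COX1 and Ndufa4l2 by day of DSS, with the 3 replicates as points, the mean as a bar and the SD as a whisker. Cox7a1, ND3 and Ndufa1 have all day 4 and day 6 libraries below all day 0 and day 2 libraries, COX1 is highest at day 2 and Ndufa4l2 at day 6.

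Complex I, which has the most tested members, gave the largest number of lower ones by count, and complex IV the largest share. Over both genomes 19% of the 42 tested members of complex I were lower at day 4 and at day 6, against 31.2% and 37.5% of the 16 of complex IV. Of all genes 12% were called lower at day 4 and 12.4% at day 6. Without both libraries that stand apart, Cox7a1 was the only nuclear member of complex IV still lower at day 6. Ndufa1, a small accessory subunit needed for assembly, had 72.1, 55.4 and 59.3 CPM at day 0, 57.2, 52.8 and 50.7 CPM at day 2, 31.5, 36.0 and 32.9 CPM at day 4, and 33.3, 32.3 and 41.1 CPM at day 6. No library of days 4 and 6 reached any library of days 0 and 2. Its fold change was -0.87 ± 0.13 at day 4 (limma, adjusted p = 0.000586) and -0.79 ± 0.13 at day 6 (limma, adjusted p = 0.000947), and both calls stood in all 24 alternatives. Ndufb11, an accessory subunit of the membrane arm, fell at day 4 (-0.84 ± 0.19, limma, adjusted p = 0.00515) and at day 6 (-0.68 ± 0.19, limma, adjusted p = 0.0153), as did Ndufv3, an accessory subunit of the NADH-binding module (-0.82 ± 0.17 at day 4 and -0.47 ± 0.17 at day 6). The day 6 call of Ndufb11 was lost without both libraries that stand apart (limma, adjusted p = 0.0835). The day 6 call of Ndufv3 was lost in 10 of the 12 fits that leave out 1 library, with a fold change of -0.31 without day 6 replicate 2 (limma, adjusted p = 0.138). Ndufb11 overlaps Rbm10 on the opposite strand over 12.9% of its exons, and the strand setting of the counting is not given in the sources used here. Ndufb8 had the largest nuclear fall of complex I at day 4, at 89.6 ± 3.45 CPM against 206 ± 109 CPM at day 0 (SD, n = 3 each). Day 0 replicate 1 held 329 CPM of it, and the call was lost without that library (limma, adjusted p = 0.118), without day 0 replicate 3 or without any 1 day 4 library (adjusted p of 0.0548 to 0.0877). Ndufb9 had the largest called fall of complex I nuclear members at day 6 (-0.81 ± 0.22, limma, adjusted p = 0.0149), a call lost without day 0 replicate 1 (adjusted p = 0.0585), and it overlaps another gene over 19.5% of its exons.

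Core subunits of complex I, which take part in its catalysis, are given here at day 4, and none named passed the test. The nuclear core subunits Ndufs1, Ndufs3, Ndufs7, Ndufs8, Ndufv1 and Ndufv2 all had negative fold changes at day 4, between -0.67 and -0.22. Their adjusted p in limma lay between 0.0723 and 0.371. Accessory subunits also differed among themselves: Ndufa5 was at 0.39 ± 0.16 at day 4 (limma, adjusted p = 0.0811) with all day 4 libraries above all day 0 libraries, and it was called higher only without both libraries that stand apart (limma, adjusted p = 0.0408).

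ND3 was the mitochondrial gene whose fall was stable. It had 16.4, 22.5 and 18.7 CPM at day 0, 15.7, 20.8 and 20.4 CPM at day 2, 6.53, 3.73 and 5.44 CPM at day 4, and 4.34, 8.38 and 4.16 CPM at day 6. Days 4 and 6 did not overlap with days 0 and 2. The fold change was -1.71 ± 0.26 at day 4 (limma, adjusted p = 0.000485) and -1.66 ± 0.26 at day 6 (limma, adjusted p = 0.000508), and both calls stood in all 24 alternatives. The other complex I genes of the same genome did not pass the test with all libraries. ND1, ND2, ND4, ND5 and ND6 had fold changes between -0.34 and 0.16 at day 4, none with an adjusted p under 0.189 in limma. ND4L, which like ND3 has a near-complete nuclear copy, was at 33.5, 14.4 and 10.5 CPM at day 4, against 5.38, 20.1 and 18.5 CPM at day 0, a fold change of 0.40 ± 0.56 on the other side of 0 from ND3 (limma, adjusted p = 0.606). Without both libraries that stand apart, ND1, ND2 and ND4 were also lower at both days, between -0.51 and -0.64 at day 6 against -2.04 for ND3. Nearly all of ND3 has the copy shown above, and the part of the counting in its fall was not tested.

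COX1 and CYTB, subunits at the catalytic centres of complexes IV and III, had every day 4 library below every day 2 library, and COX1 alone passed the test. COX1 had 15895, 15253 and 15228 CPM at day 4, against 25930, 29181 and 25635 CPM at day 2, a fold change of -0.80 ± 0.22 (limma, adjusted p = 0.0171). That call was lost without day 2 replicate 2 (limma, adjusted p = 0.0676) and without any 1 of the day 4 libraries (adjusted p of 0.0504 to 0.0628). CYTB had 5813, 6070 and 5830 CPM at day 4, against 8756, 9202 and 8623 CPM at day 2 (-0.59 ± 0.22, limma, adjusted p = 0.0558). All 7 genes of the upper range had negative fold changes at day 4 against day 2, from -0.80 to -0.27, and in 6 of them every day 4 library was below every day 2 library, where 24.3% of all genes showed this. Without both libraries that stand apart, 9 of 13 mitochondrial members were lower at day 4 than at day 2, COX1, CYTB, ND1, ND2 and ND4 among them, where 19% of all genes were.

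The fold changes of day 4 against day 2 use no day 0 library. With all libraries 8 members were lower, where 12.9% of all genes were called lower, and none was higher. They were Cox7a1, Cox7a2l, Ndufa1, Ndufv3, Cox6c and Uqcrh among nuclear members, and ND3 and COX1. Uqcrh, the hinge subunit of complex III, was at 112 ± 2.78 CPM at day 4, against 175 ± 13.8 CPM at day 2 (SD, n = 3 each). Its fold change was -0.63 ± 0.22 (limma, adjusted p = 0.0445), and this call was lost in 8 of the 12 fits that leave out 1 library, with an adjusted p in limma of up to 0.127. Cox6c lost its call without any 1 library of day 2 or day 4, and Ndufv3 without day 2 replicate 1, day 2 replicate 3 or any 1 day 4 library. The 8 calls became 4 or 5 without any 1 day 4 library, 5 without day 2 replicate 1 or 2, and 13 to 16 when day 0 replicate 1 or either replicate 2 or replicate 3 of day 6 was left out. Shares of all genes in these fits are not given. DESeq2 called 18 members lower, where it called 18.6% of all genes lower. Between day 6 and day 4 no member other than Ndufa4l2 passed the test, where 0.951% of all genes were called lower.

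Complexes II, III and V had 0 of 3, 1 of 8 (12.5%) and 1 of 19 (5.26%) members of both genomes lower at day 4. At day 6 they had 0 of 3, 2 of 8 (25%) and 3 of 19 (15.8%). Of all genes 12% were called lower at day 4 and 12.4% at day 6. Of complex II, Sdha, the flavoprotein that oxidises succinate, had 393, 363 and 413 CPM at day 4, against 368, 455 and 476 CPM at day 0 (-0.14 ± 0.18, limma, adjusted p = 0.564). Sdhb, its iron-sulfur partner, had 156, 138 and 162 CPM at day 4, against 424, 183 and 254 CPM at day 0 (-0.83 ± 0.33, limma, adjusted p = 0.0744). Day 0 replicate 1 was the highest library for Sdhb and the lowest of its day for Sdha, so the pair differed within 1 library. In complex III, Uqcrh fell at days 4 and 6 (-0.78 ± 0.22 and -0.77 ± 0.22) and Uqcr10 at day 6 (-0.94 ± 0.33). The call of Uqcr10 was lost in 10 of the 12 fits that leave out 1 library, with -0.56 without day 0 replicate 1 (limma, adjusted p = 0.173) and -0.58 without day 6 replicate 2 (limma, adjusted p = 0.144). Uqcrh lost its call at both days without day 0 replicate 1 (limma, adjusted p = 0.066 at day 4 and 0.0682 at day 6), and at day 4 also without day 4 replicate 2 (adjusted p = 0.0531). The core proteins Uqcrc1 and Uqcrc2 and the Rieske protein Uqcrfs1 did not pass, with adjusted p from 0.0503 to 0.213 at both days in limma. In complex V, Atp5h of the peripheral stalk fell at day 4 (101 ± 5.40 CPM, against 187 ± 73.9 CPM at day 0, SD, n = 3 each), and Atp5d, Atp5e and Atp5g2 fell at day 6. Atp5h lost its call without day 0 replicate 1 (limma, adjusted p = 0.111), day 0 replicate 3 or any 1 day 4 library. Day 6 and day 0 libraries overlapped for Atp5d and Atp5e, and the 3 calls of day 6 each lost significance in 8 to 10 of the 12 fits that leave out 1 library, day 0 replicate 1 and day 6 replicate 2 among them. Atp5g2 shares 34.7% of its 100-base stretches with another gene, so its reads may be split. The catalytic core of complex V, Atp5a1, Atp5b and Atp5c1, had fold changes of -0.47, -0.39 and -0.69 at day 4, with adjusted p of 0.11 to 0.312 in limma.

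Of the 15 members lower at day 4, Cox7a1, ND3, Cox7a2l, Ndufa1, Ndufb11, Ndufv3 and Cox6c kept the call in all 24 alternatives. The other 8 lost it in at least 1 fit that leaves out a library, most often day 4 replicate 2 (8 of them) or day 0 replicate 1 (7 of them). Of the 20 called at day 6, Cox7a1, ND3 and Ndufa1 kept the call throughout, 14 lost it without day 0 replicate 1, 12 without day 0 replicate 3, 10 without day 6 replicate 1, 11 without day 6 replicate 2, and 5 or 6 without any 1 library of day 2 or day 4. None changed sign. Over the 4 days together 15 members passed limma's F test, 12 nuclear and 3 mitochondrial (ND3, COX1 and COX2), where 43% of all genes did. Without day 6 replicate 3, 43 members passed, and the share of all genes in that fit is not given.

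The promoters of the members were compared because many respiratory chain genes share binding motifs in them. RefSeq (build GRCm38.p6) gave 300 bases, from 250 before to 50 after the start, for 69 of the 89 nuclear members, 63 of them tested. Both strands were searched for the motif of nuclear respiratory factor NRF1 (GCGCA and GCGC with 1 base of any kind between), CCGGAAG (the core bound by ETS factors such as GABPA), AAGATGGC (YY1), AAGGTCA (bound by estrogen-related receptors) and ACGTG (the core of hypoxia response elements). The NRF1 motif was in 25.4% of the tested nuclear members and in 5.19% of all 27025 genes with a promoter. The ETS core was in 23.8% and 9.93%, the YY1 motif in 15.9% and 3.19%, the AAGGTCA motif in 11.1% and 5.38%, and ACGTG in 23.8% and 21.8%. Of the 18 members lower at day 4 or day 6 that have a promoter, 4 held the NRF1 motif, 5 the ETS core, 2 the YY1 motif, 1 AAGGTCA and 6 ACGTG. A match is a run of letters and not a measured site.

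Cox7a1 and Ndufa1, the nuclear members lower under every setting at both days, are shown with Cox6a1, the nuclear member with the highest level per kilobase, which also fell. The promoters are chr7:30183921-30184220 on the plus strand for Cox7a1, chrX:37191189-37191488 on the minus strand for Ndufa1 and chr5:115348909-115349208 on the minus strand for Cox6a1. Capitals mark matches of the motifs on either strand, which are ACGTG in Cox7a1 and Ndufa1, and the NRF1 motif and the ETS core in Cox6a1:

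Cox7a1: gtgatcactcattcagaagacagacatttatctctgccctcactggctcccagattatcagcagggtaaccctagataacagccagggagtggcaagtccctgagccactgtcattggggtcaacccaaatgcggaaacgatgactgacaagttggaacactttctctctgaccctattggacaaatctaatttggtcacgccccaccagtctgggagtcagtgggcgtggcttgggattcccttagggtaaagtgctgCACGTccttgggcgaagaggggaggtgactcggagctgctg

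Ndufa1: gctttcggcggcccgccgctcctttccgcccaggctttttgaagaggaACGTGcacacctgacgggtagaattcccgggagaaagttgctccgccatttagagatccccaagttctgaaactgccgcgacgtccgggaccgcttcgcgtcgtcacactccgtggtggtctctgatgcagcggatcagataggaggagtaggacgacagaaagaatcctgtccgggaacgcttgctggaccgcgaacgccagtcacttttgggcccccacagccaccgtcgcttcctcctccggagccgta

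Cox6a1: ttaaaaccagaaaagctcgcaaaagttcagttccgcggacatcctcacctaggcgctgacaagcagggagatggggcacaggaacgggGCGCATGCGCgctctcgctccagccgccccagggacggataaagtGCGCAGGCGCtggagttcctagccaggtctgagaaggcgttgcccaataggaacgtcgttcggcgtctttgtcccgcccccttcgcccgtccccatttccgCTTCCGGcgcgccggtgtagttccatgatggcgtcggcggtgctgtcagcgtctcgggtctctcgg

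Regulators of mitochondrial biogenesis, the programme that sets the amount of mitochondria, changed in both directions. Of a list of 15, 6 rose and 4 fell at day 4 and 3 rose and 4 fell at day 6, against day 0, and none passed at day 2. The shares were 40% higher and 26.7% lower at day 4, where 21.2% and 12% of all genes were, and 20% higher and 26.7% lower at day 6, where 23.5% and 12.4% of all genes were. Without both libraries that stand apart, 4 were higher and 5 lower at day 4, where 27.2% and 14.4% of all genes were. In that fit 2 were higher and 5 lower at day 6, where 22.3% and 11.7% of all genes were. With median-of-ratios or quantile scaling or edgeR, 2 rose at day 4, and the shares of all genes higher in these fits are not given. The coactivator PGC-1 alpha (Ppargc1a) had 23.8, 28.0 and 32.3 CPM at day 0, 40.2, 53.0 and 56.9 CPM at day 2, 6.50, 7.98 and 8.19 CPM at day 4, and 6.85, 5.33 and 13.6 CPM at day 6. Every day 2 library was above every day 0 library, and all libraries of days 4 and 6 were below both. It fell at day 4 (-1.76 ± 0.27, limma, adjusted p = 0.000599) and at day 6 (-1.68 ± 0.27, limma, adjusted p = 0.00067). Ppara, a nuclear receptor for fatty acids, fell at day 4 (-1.69 ± 0.21, limma, adjusted p = 0.000156), and Esrrg, an estrogen-related receptor that works with PGC-1 alpha, was at 0.748 ± 0.179 CPM at day 4, against 5.02 ± 0.346 CPM at day 0 (SD, n = 3 each). These 3 kept their calls at days 4 and 6 under all alternatives.

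The regulators that rose at day 4 were led by Perm1, a muscle regulator of the same programme, and Pprc1, the PGC-1 relative known as a growth-responsive coactivator. Pprc1 had 84.8, 89.2 and 82.3 CPM at day 4, against 29.8, 50.2 and 33.6 CPM at day 0 (1.19 ± 0.17, limma, adjusted p = 0.00034). Perm1 averaged 7.10 ± 1.29 CPM at day 4, against 1.57 ± 0.783 CPM at day 0 (SD, n = 3 each), with a fold change of 1.69 ± 0.25 (limma, adjusted p = 0.000424). Nrf1, the factor whose motif was searched above, was at 33.0 ± 1.94 CPM at day 4, against 22.8 ± 1.76 CPM at day 0 (0.52 ± 0.13, limma, adjusted p = 0.0107), with a highest adjusted p of 0.0936 over the alternatives.

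**Figure D5:**
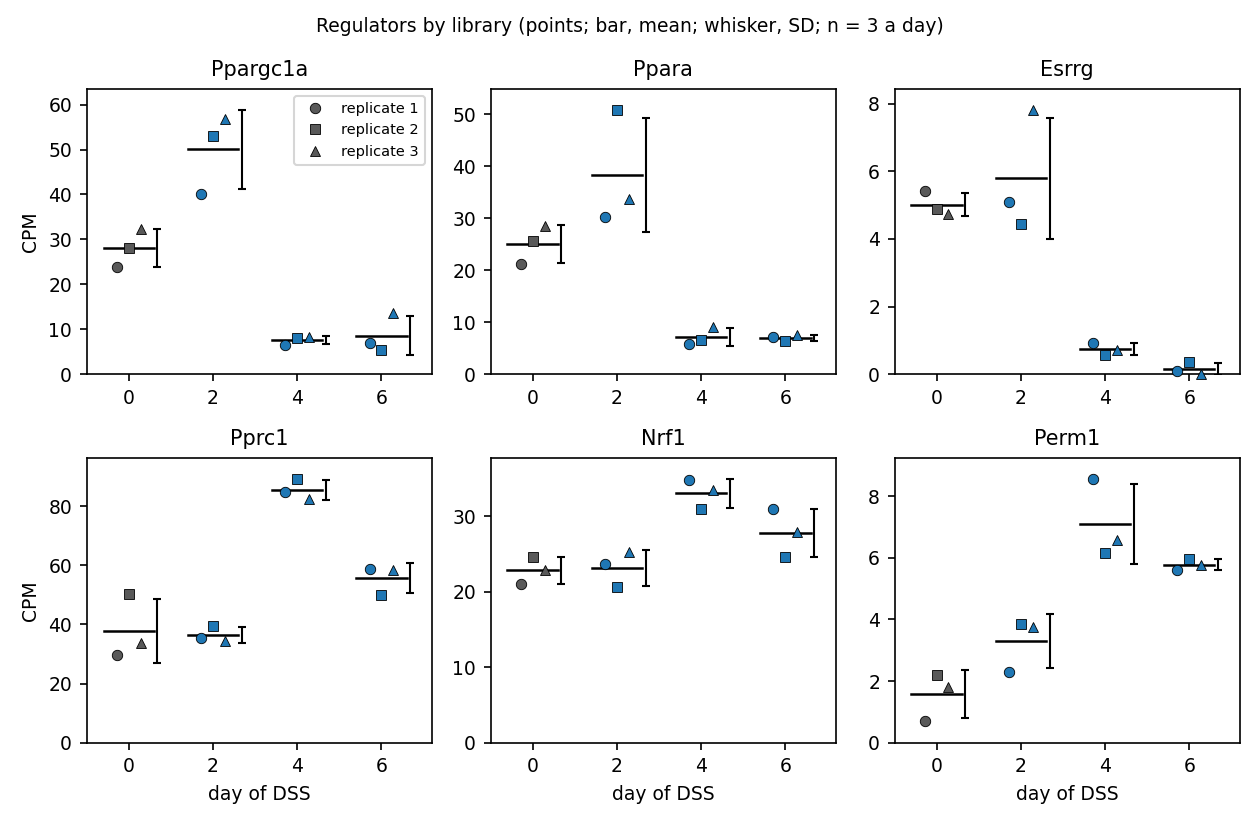
CPM of the regulators Ppargc1a, Ppara, Esrrg, Pprc1, Nrf1 and Perm1 by day of DSS, with the 3 replicates as points, the mean as a bar and the SD as a whisker. Ppargc1a, Ppara and Esrrg are lower in all libraries of days 4 and 6 than in all libraries of days 0 and 2, and Pprc1 is highest at day 4 (82.3 to 89.2 CPM).

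Mitochondrial ribosomal proteins, which translate the 13 mitochondrial messages, are nuclear genes like most subunits, and their course differed at days 4 and 6. At day 2 against day 0 they moved much as the nuclear subunits did, with a median of -0.35 and 74 of 77 negative. The nuclear subunits had a median of -0.32 in that comparison, with 72 of 75 negative. Against day 0, 3 of 77 (3.9%) were higher and none lower at day 4, where 21.2% of all genes were called higher and 12% lower. The median was 0.08, and that of all genes was 0.13. At day 6 none was higher and 1 lower, where 23.5% and 12.4% of all genes were. In that comparison 61 of the 77 were negative, with a median of -0.14. Against day 2, 27 of 77 (35.1%) were higher at day 4 and none lower, with a median of 0.47, where 21% of all genes were called higher. In the same comparison 6 nuclear subunits of the chain were lower and none higher. Mrps18b of the small ribosomal subunit, for example, was at 17.0 ± 0.813 CPM at day 4, against 8.24 ± 0.805 CPM at day 2 (SD, n = 3 each; limma, adjusted p = 0.00764). Under other scalings the 27 became 12 (median of ratios), 6 (quantile) and 10 (edgeR), with none lower in any of these, and the day 4 median against day 0 turned to -0.05, -0.08 and -0.08. The shares of all genes higher at day 4 than at day 2 under these scalings are not given. Without both libraries that stand apart, 34 ribosomal genes of the 77 were higher and 1 lower at day 4 than at day 0, where 27.2% of all genes were called higher and 14.4% lower.

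Other mitochondrial lists were counted against day 0, where 21.2% of all genes were called higher and 12% lower at day 4, and 23.5% higher and 12.4% lower at day 6. Without both libraries that stand apart, 27.2% of all genes were called higher and 14.4% lower at day 4, and 22.3% higher and 11.7% lower at day 6. Of 45 tested assembly factors, 2 rose (4.44%) and 4 fell (8.89%) at day 4, both shares below those of all genes, and without both libraries that stand apart 4 were higher and 2 lower. Cox18, which inserts COX2 into the membrane, was at 13.7 ± 0.164 CPM at day 4, against 7.38 ± 0.942 CPM at day 0 (SD, n = 3 each), and Surf1, an assembly factor of complex IV, fell by 0.59 ± 0.20 on the log2 scale. Of 28 genes for the copying, transcription and RNA handling of mitochondrial DNA, 5 rose (17.9%) and 3 fell (10.7%) at day 4, near the shares of all genes, and without both libraries 9 were higher and 2 lower. Pnpt1, the mitochondrial polynucleotide phosphorylase and an interferon-induced gene, had 73.4, 72.4 and 68.2 CPM at day 4, against 30.8, 26.3 and 26.7 CPM at day 0 (1.32 ± 0.18, limma, adjusted p = 0.000235). Polg2, the accessory subunit of the mitochondrial DNA polymerase, fell (-1.05 ± 0.22, limma, adjusted p = 0.0034). Of 18 genes of the tricarboxylic acid cycle, which supplies the chain with electrons, 2 fell at day 4 (11.1%) and 5 at day 6 (27.8%), and none rose at either day. Idh2 (-0.73 ± 0.12) was among them at day 4 and Suclg2 (-0.87 ± 0.21) at day 6. Without both libraries 4 genes of the cycle were lower at day 4 and 1 at day 6.

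Markers of the cells in the tissue moved over the same days. Against day 0, 12% of all genes were called lower and 21.2% higher at day 4, and 12.4% lower and 23.5% higher at day 6. Of 15 colon epithelium markers 2 (13.3%) fell at day 4, near the share of all genes, and 4 (26.7%) fell at day 6. Their sum lay between 15209 and 21716 CPM at day 0, between 17255 and 20159 CPM at day 2, between 12880 and 15821 CPM at day 4 and between 7388 and 19469 CPM at day 6. All 8 neutrophil markers rose at both days, with sums of 274 to 362 CPM at day 4 and 308 to 980 CPM at day 6, against 9.42 to 12.7 CPM at day 0. Of 10 monocyte and macrophage markers 7 rose at day 4 and 10 at day 6, and all 6 fibroblast markers rose at both days. Their part in the changes of the respiratory chain was not tested.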

How the data were processed

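Per the labels' protocols, poly(A) RNA was selected from total RNA, made into dUTP-marked libraries and read as 150-base pairs. The submitters' processing notes name HISAT2 2.2.1 for alignment, the mm10 genome, and featureCounts 2.0.1 for counting. The authors deposited 1 table of CPM, and 100% of its positive values were whole reads within 0.1 read, so reads could be recovered. Library totals were 31058911 to 41011005 reads, and 1 read was worth at most 0.0322 CPM. Amplified reads with no molecular identifier can repeat a molecule, so limits from depth cover counting error only.

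Log2(CPM + 1) values were fitted with limma 3.58.1 in R 4.3.3 as means of the 4 days over all 12 libraries, with trended robust moderation and Benjamini-Hochberg adjustment over 15246 genes that reached 1 CPM in 3 or more libraries. edgeR 4.0.16 and DESeq2 1.42.0 on recovered reads, other scalings, pseudocounts of 0.5 and 5, other filters, a replicate block and fits without each library were alternatives, and the fit without both libraries that stand apart was added after seeing the data. The main limma fit, edgeR and DESeq2 were run on simulated counts with known changes, and the other alternatives were not. Exon lengths, overlaps and shared 100-base stretches came from GENCODE models of mm10; which annotation and strand setting the authors used is not given in the sources used here.

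The members and gene lists were chosen with earlier results of these data known. Named genes were the 13 mitochondrial genes, a panel of core subunits and isoforms, for each complex the called nuclear members with the largest rise and fall, and up to 2 called members of each other list in each direction. Other members were named for their calls after their values were seen.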

Additional observations from a re-analysis of the deposited data

How the results depend on the processing

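No member passed at day 2 against day 0 under any alternative. The 15 members called at day 4 against day 0 became 23 after median-of-ratios scaling, 29 after quantile normalization, 33 with edgeR, 48 with DESeq2 and 32 without both libraries that stand apart, a fit chosen after seeing the data. The 20 called at day 6 against day 0 became 37, 44, 35, 51 and 11 in the same order. For day 4 against day 2 the 8 calls became 18 with DESeq2 and 26 without both libraries, and for day 6 against day 4 the 1 call became 0 with a mean of at least 5 CPM and 0 without both. The F test's 15 became 23 with quantile normalization, 23 with edgeR, 47 with DESeq2 and 27 without both. Leaving out 1 library gave 7 to 42, 8 to 59, 4 to 16, 0 to 2 and 10 to 43 for day 4 and day 6 against day 0, day 4 against day 2, day 6 against day 4 and the F test. The median of mitochondrial minus nuclear fold changes ranged from 0.21 to 0.97, -0.19 to 0.48 and -0.31 to 0.44 at days 2, 4 and 6 when 1 library was left out. The cause of these moves was not tested. For the fits without 1 library, the replicate block and the alternative F tests, the shares of all genes called are not given. In those fits a move of the members cannot be told from a move over all genes. With a replicate block the counts were 29 at day 4 and 36 at day 6 against day 0, 13 for day 4 against day 2 and 23 for the F test. The replicate numbers were not taken as pairs: 7 of 18 same-numbered pairs correlated above 0.1 (from -0.21 to 0.64), and 5 of 12 libraries correlated best with their own number. Members under about 1 CPM are limited by depth.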
